A study of Homo sapiens with 4 samples.

Results

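The genes described here encode the SWI/SNF, ISWI and CHD chromatin remodelers, enzymes that use ATP to slide, eject or restructure nucleosomes, together with the INO80 and EP400 ATPases. They were chosen by name, as the SMARC genes, CHD1 to CHD9, CHD1L and listed subunits, which gave 40 genes of the 22985 named in the data, held in 77 transcript entries. The study sequenced total RNA depleted of ribosomal RNA from 2 human prostate cancer cell lines, with 2 libraries per line. LNCaP, established from a lymph node metastasis and responsive to androgen, is labelled as primary cancer, and C4-2, derived from LNCaP by passage in castrated mice, is labelled as castration-resistant. The culture medium of both lines held charcoal-stripped serum, which is depleted of steroids such as androgens. No label states separate cultures, so the p-values measure only the spread between these libraries, which may be technical. Groups follow the sample titles. The stored data of each sample carry the other line's name, and if those names were right every direction here would turn round.

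SWI/SNF complexes carry 1 ATPase, SMARCA4 (BRG1) or SMARCA2 (BRM), on a scaffold of core subunits. Canonical BAF is defined by ARID1A or ARID1B with a DPF protein, PBAF by ARID2, PBRM1, BRD7 and PHF10, and the non-canonical form by BRD9. ISWI enzymes space nucleosomes, CHD3, CHD4 and CHD5 are the ATPases of the deacetylase complex NuRD, and SWI/SNF subunits are often mutated in cancer. Many subunits exist as alternative paralogs, so the ratio of paralogs describes the makeup of the transcripts for a complex, though not of the complex itself.

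Sense tags in named genes came to between 58925680 and 163126630 per library. The library total behind RPKM (tags per kilobase of exon, scaled to the library total) was worked out here from the counts, RPKM and spans of the entries. These sense tags were 31.03% and 35.65% of it for the LNCaP samples, and 67.67% and 69.43% for the C4-2 samples. The part of that gap in any result below was not tested. Luminal epithelial markers were present in every library. The keratin gene KRT18 had 260 and 266 CPM (sense tags scaled to library size with TMM factors) in LNCaP and 573 and 560 in C4-2, and HOXB13, a prostate transcription factor, had 187 and 209 against 346 and 328. The sums were at most 0.203 CPM for 4 basal markers, 9.76 for 5 fibroblast markers and 4.58 for 4 endothelial markers. Of the fibroblast markers COL1A2 was at 0 tags throughout, but COL1A1 had 6.77 and 8.25 CPM in LNCaP against 2.65 and 2.74 in C4-2. COL3A1 went the other way, at 0.915 and 1.41 against 3.0 and 2.98. Most of the endothelial sum was VWF, at 4.24 and 4.13 against 3.53 and 3.31. Of the immune genes, CD3E was at 0 throughout, PTPRC lay between 0.0373 and 0.141 CPM, and LYZ had 1.65 and 1.64 CPM in LNCaP and 0.81 and 0.87 in C4-2. KLK3, a luminal marker, had 533 and 557 CPM in LNCaP against 6.14 and 6.23 in C4-2. In bulk RNA, fewer cells expressing a gene and less RNA per cell cannot be told apart.

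Among the remodelers, 39 had enough tags for the test and 27 differed between the lines, with 18 of them higher in C4-2 as labelled and 9 lower (quasi-likelihood test of edgeR, Benjamini-Hochberg adjusted p under 0.05 over 15975 genes). That is 69.2% of the tested members, where 80.0% of all tested genes passed. For the higher direction the background was 40.2% and for the lower 39.7%. Most differences were small, and a change of at least 2-fold was reached by 1 member, SMARCA1, where 29.8% of all tested genes reached it. The median log2 fold change was 0.10 over the members and -0.011 over all tested genes, and the median absolute value was 0.34 against 0.64. The members had a median level of 62.2 CPM against 18.9 for all tested genes and a median exon length of 5770 against 2820 bases. In 33 of 39 members (84.6%) the CPM of LNCaP and C4-2 did not overlap, as for 89.9% of all tested genes.

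Each of these directions is read against the median gene. Scaled to the library totals behind RPKM, the median of all genes moved to 1.01 and 36 members were higher and 1 lower, so that every lower member except SMARCA1 turned positive. Upper quartile scaling moved the median of all genes to -0.18 and gave 12 members higher and 18 lower. There SMARCD3, SMARCE1, ARID2, BPTF, BRD9, CHD5, CHD9, SMARCAD1 and INO80 passed as lower, and the calls of SMARCC1, DPF1, CHD1, CHD6, CHD7 and SMARCAL1 ended. All 27 called members stayed on the same side of the median of all genes under the 3 scalings. A change of scaling shifts all genes nearly alike, so this outcome was close to fixed in advance and is no separate support for the calls. With the trend of fold change on exon length and GC content removed, 17 members were higher and 12 lower, and the values of several called genes shrank or grew by more than 1.5 times, as given below. DESeq2 gave the same 27 calls, and 22 of the 27 held without each library in turn.

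**Figure D1:**
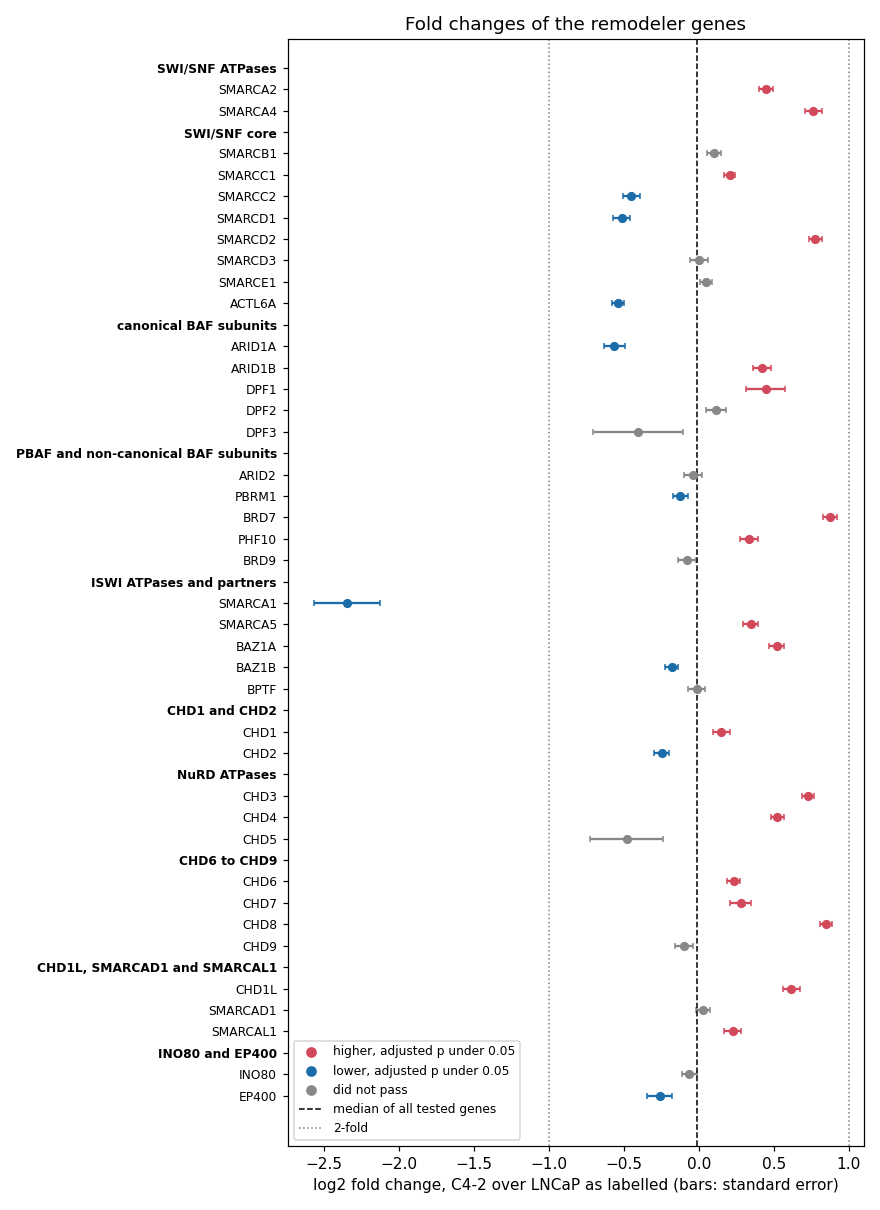
Log2 fold change of 39 remodeler genes by role, C4-2 over LNCaP as labelled, with TMM scaling. Bars are standard errors, and the dashed line is the median of all tested genes. SMARCA1 at -2.35 lies beyond the 2-fold lines, and the other 38 lie between -0.56 and 0.88.

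**Figure D2:**
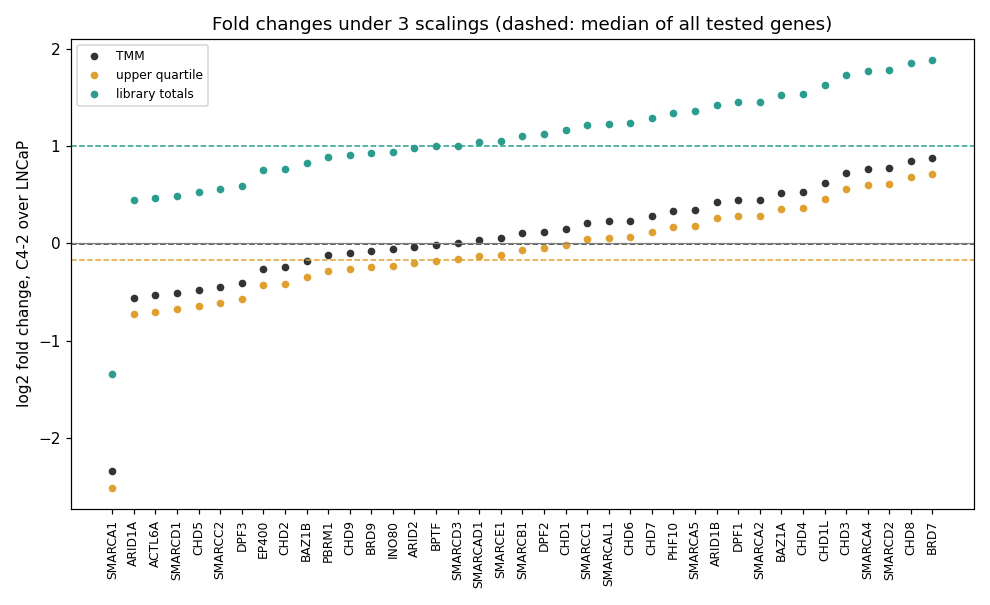
Log2 fold change of the 39 members under TMM, upper quartile and library total scaling, ordered by the TMM value. Each dashed line is the median of all tested genes under that scaling, at -0.011, -0.18 and 1.01. The order of the members is nearly kept while all values shift together.

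The promoters of the ISWI ATPase pair and of the SMARCD1 and SMARCD2 pair are shown because the deposited RPKM ratios of these paralogs differed most between the lines. With 0.1 RPKM added, CHD5/CHD4 (-1.41) came before SMARCD2/SMARCD1 (1.30). CHD5 had only 0.023 to 0.037 RPKM, less than the amount added, so that value depends on the library scaling. The sequences are from RefSeq (GRCh38.p14), 250 bases before to 50 bases after the annotated gene start, which matched 31 of the 40 members. Capitals mark matches on either strand to GGGCGG (the GC box) and to AAGATGGC (the YY1 motif).
SMARCA1, chrX:129523441-129523740, minus strand: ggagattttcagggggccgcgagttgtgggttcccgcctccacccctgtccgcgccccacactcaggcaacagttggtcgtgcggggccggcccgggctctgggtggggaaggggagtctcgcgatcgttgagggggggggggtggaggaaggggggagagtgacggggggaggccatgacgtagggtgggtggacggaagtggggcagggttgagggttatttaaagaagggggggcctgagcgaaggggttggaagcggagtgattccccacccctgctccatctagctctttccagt
SMARCA5, chr4:143513452-143513751, plus strand: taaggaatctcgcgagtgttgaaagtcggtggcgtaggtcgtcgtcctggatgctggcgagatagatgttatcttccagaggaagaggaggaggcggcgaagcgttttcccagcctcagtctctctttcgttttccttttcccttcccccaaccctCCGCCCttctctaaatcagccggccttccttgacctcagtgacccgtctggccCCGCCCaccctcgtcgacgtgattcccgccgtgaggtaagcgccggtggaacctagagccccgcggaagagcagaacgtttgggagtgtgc
SMARCD1, chr12:50085092-50085391, plus strand: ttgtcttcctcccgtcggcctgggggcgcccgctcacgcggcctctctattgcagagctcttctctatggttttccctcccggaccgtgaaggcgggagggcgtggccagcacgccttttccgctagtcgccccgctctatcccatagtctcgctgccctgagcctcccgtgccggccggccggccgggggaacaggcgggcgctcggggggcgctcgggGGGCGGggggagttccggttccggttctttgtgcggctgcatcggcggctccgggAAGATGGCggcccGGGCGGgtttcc
SMARCD2, chr17:63842636-63842935, minus strand: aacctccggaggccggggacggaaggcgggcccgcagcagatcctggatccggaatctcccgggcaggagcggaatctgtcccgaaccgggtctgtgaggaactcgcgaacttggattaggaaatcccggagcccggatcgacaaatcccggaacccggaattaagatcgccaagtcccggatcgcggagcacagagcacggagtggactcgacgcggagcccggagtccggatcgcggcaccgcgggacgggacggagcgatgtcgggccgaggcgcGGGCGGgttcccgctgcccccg

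SMARCA1 held no match to the motifs given here, SMARCA5 and SMARCD1 held 2 GC boxes each and SMARCD2 held 1, and the YY1 letters were found in SMARCD1. The GC box letters occurred in 25 of the 31 promoters (80.6%), against 58.5% of 15843 protein-coding promoters of the same length. CCAAT occurred in 11 members (35.5%, against 36.4%), CCGGAAG, the ETS core, in 4 (12.9%, against 14.2%), and TATAAA in 0 (against 9.63%). The NRF1 motif was in 0 members (against 1.75%), and AAGATGGC also in DPF2 (6.45%, against 3.91%). Both strands were searched. The promoters held a median of 30 CpG dinucleotides, from 3 for CHD2 to 55 for SMARCA4, where the median of all protein-coding promoters was 22. SMARCA1 held 17 CpG and SMARCA5 held 25.

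Both SWI/SNF ATPase genes were higher in the libraries labelled C4-2. SMARCA4 (hg19 chromosome 19, 11071598 to 11172958, plus strand) had 100 and 103 CPM in LNCaP and 181 and 164 in C4-2, so the lines did not overlap (log2 fold change 0.76 ± 0.055 SE, adjusted p = 4.00e-06). SMARCA2 (hg19 chromosome 9, 2015342 to 2193623, plus strand) had 58.9 and 57.2 CPM against 78.2 and 80.3, again without overlap (0.45 ± 0.044, adjusted p = 2.55e-05). Both calls held at smaller values with the length and GC trend removed, 0.38 for SMARCA4 and 0.22 for SMARCA2. SMARCA4 was the more abundant ATPase transcript per length in every library. Its share of their joint RPKM was 62.9% and 64.3% in LNCaP and 69.8% and 67.1% in C4-2. The SMARCA2 to SMARCA4 ratio was 0.59 and 0.56 in LNCaP and 0.43 and 0.49 in C4-2, 1.24-fold lower.

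Ratios of paralogs within a library do not depend on library scaling unless an amount is added to both, but the trend with length and GC content was not removed from them. Of 12 pairs compared 11 had values, and for all 11 the libraries of the lines did not overlap, where the CPM of 89.9% of all tested genes did not overlap either. For DPF3/DPF2, at 0.021 and 0.035 in LNCaP and 0.020 and 0.018 in C4-2, the log2 difference of -0.48 shrank to -0.12 without LNCaP replicate 2. With 2 libraries against 2, the exact two-sided permutation test cannot go below p = 0.333, which each of the 11 pairs reached, so none can pass, and the adjusted value over the pairs is also 0.333. The differences are therefore given beside the spread between replicates.

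Of the core subunits, which scaffold the complex and hold its ATPase, 2 were higher, 3 lower and 3 of the 8 tested did not pass. SMARCD2 (BAF60B; hg19 chromosome 17, 61909441 to 61920351, minus strand) was the higher of the SMARCD paralogs in C4-2, with 142 and 144 CPM in LNCaP and 249 and 242 in C4-2 (0.78 ± 0.043, adjusted p = 8.94e-07). SMARCD1 (BAF60A; hg19 chromosome 12, 50478983 to 50494494, plus strand) was lower, with 20.6 and 21.1 CPM against 14.7 and 14.6 (-0.51 ± 0.058, adjusted p = 6.55e-05). SMARCD3 (BAF60C), a paralog known from heart and muscle, had 30.1 and 32.7 CPM against 32.4 and 30.6 and did not pass, the libraries of the lines being interleaved. In RPKM, SMARCD2 exceeded SMARCD1 8.54-fold and 8.44-fold in LNCaP and 21.1-fold and 20.5-fold in C4-2. That ratio was 2.45-fold higher in C4-2, a log2 difference of 1.29 with replicate SDs of 0.012 and 0.028. SMARCD2 thereby made up 68.5% and 67.3% of SMARCD transcripts per length in LNCaP and 79.5% and 79.8% in C4-2, while SMARCD1 made up 8.02% and 7.98% against 3.78% and 3.90%.

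The scaffold paralogs SMARCC1 (BAF155) and SMARCC2 (BAF170) moved apart as well. SMARCC1 had 105 and 104 CPM in LNCaP and 120 CPM in both libraries of C4-2 (0.21 ± 0.038, adjusted p = 0.00119). Its call ended under upper quartile scaling and after removal of the trend with exon length and GC content (log2 fold change 0.039 and 0.029). SMARCC2 had 64.6 and 59.2 CPM against 45.1 and 45.5 (-0.45 ± 0.056, adjusted p = 0.000114), and stood at -0.76 with that trend removed. The SMARCC1 to SMARCC2 ratio was 1.58 and 1.70 in LNCaP and 2.59 and 2.57 in C4-2, 1.57-fold higher.

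ACTL6A (BAF53A), an actin-related subunit of proliferating cells, was lower in C4-2, with 182 and 183 CPM in LNCaP and 126 CPM in both libraries of C4-2 (-0.54 ± 0.041, adjusted p = 5.83e-06; -0.35 with the length and GC trend removed). In RPKM it was the most abundant member in LNCaP, at 32.3 ± 2.9 (SD, n = 2). Its neuronal counterpart ACTL6B had 0 sense tags in all 4 libraries. The 95% exact Poisson interval for 0 tags reaches 3.69 tags (counting error only), and 3 tags equal 0.0499 CPM in the shallowest library. SMARCB1 (SNF5), the core subunit lost in rhabdoid tumours, had 55.0 and 54.5 CPM in LNCaP and 59.5 and 58.0 in C4-2 and did not pass (0.10 ± 0.046, adjusted p = 0.0741). SMARCB1 passed as higher without a filter on low counts (adjusted p = 0.0230), with all transcripts summed (0.0437), with both strands (0.0158) and with the crossed replicate block (0.0477). SMARCE1 (BAF57), a DNA-binding subunit, had 206 CPM in both LNCaP libraries against 214 and 213 and did not pass (0.049 ± 0.040, adjusted p = 0.291). After removal of the length and GC trend SMARCE1 passed at 0.18.

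**Figure D3:**
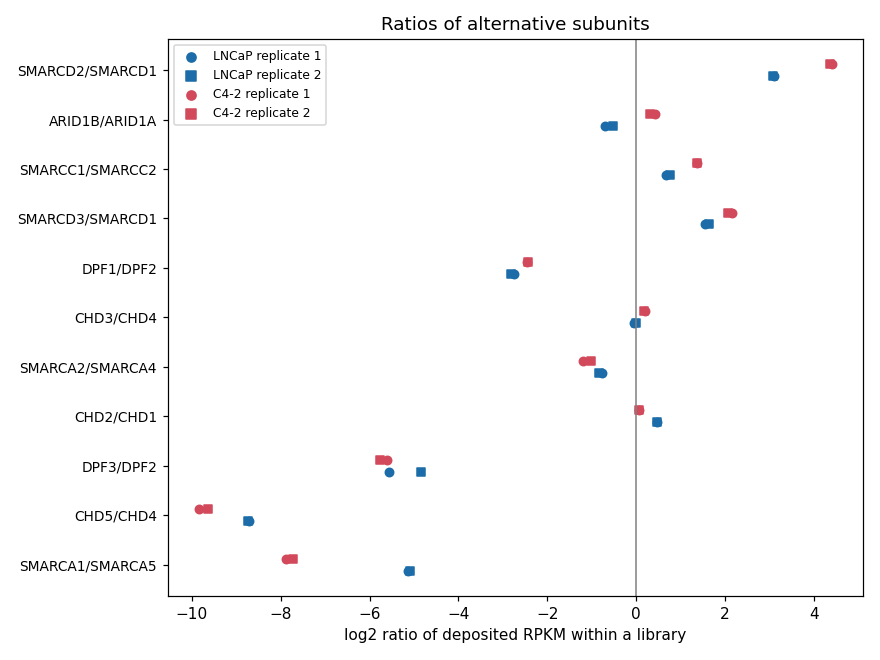
Log2 ratio of deposited RPKM for 11 pairs of alternative subunits, with each point a library. Circles and squares are replicates 1 and 2, and pairs are ordered by the difference between the lines. The libraries of the lines do not overlap for any pair, though the gap is narrow for DPF3/DPF2. Its ratio was 0.021 in LNCaP replicate 1 and 0.0205 in C4-2 replicate 1. SMARCD2/SMARCD1 and SMARCA1/SMARCA5 stand at the ends of the order.

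Relative to the median gene, the large DNA-binding subunits of canonical BAF moved in opposite directions. ARID1A (BAF250A), a frequent target of mutation in cancer (hg19 chromosome 1, 27022522 to 27108601, plus strand), had 30.4 and 26.9 CPM in LNCaP and 19.3 and 19.5 in C4-2 (-0.56 ± 0.068, adjusted p = 9.90e-05). With the length and GC trend removed ARID1A stood at -0.84, and with library totals at 0.45. ARID1B (BAF250B; hg19 chromosome 6, 157099064 to 157531913, plus strand) had 21.0 and 20.9 CPM against 28.9 and 27.1 (0.42 ± 0.058, adjusted p = 0.000211; 0.22 with the length and GC trend removed). For both genes the lines did not overlap. Per length, ARID1A was the more abundant in LNCaP and ARID1B in C4-2. The ARID1B to ARID1A ratio was 0.62 and 0.70 in LNCaP and 1.34 and 1.24 in C4-2, 1.97-fold higher, with log2 SDs of 0.12 and 0.077 within the lines. Its log2 difference lay between 0.90 and 1.07 over the settings tried.

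DPF2 (BAF45D), the histone-reading DPF protein of most tissues, had 20.1 and 18.6 CPM in LNCaP and 21.7 and 20.1 in C4-2 and did not pass. Without LNCaP replicate 1 it passed at 0.18 (adjusted p = 0.0124). DPF1 (BAF45B), known from neurons, was low and somewhat higher in C4-2, with 2.76 and 2.40 CPM against 3.61 and 3.40 (0.45 ± 0.13, adjusted p = 0.0116), a call that ended without C4-2 replicate 1 (adjusted p = 0.0627) and under upper quartile scaling (0.28, adjusted p = 0.0698). After removal of the length and GC trend DPF1 stood at 0.20 and did not pass. DPF3 (BAF45C) was nearly absent, with 23, 41, 64 and 39 tags in LNCaP replicates 1 and 2 and C4-2 replicates 1 and 2, and its log2 fold change of -0.40 ± 0.30 did not pass. DPF2 held between 83.2% and 85.4% of the DPF transcripts per length in the 4 libraries.

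Of the subunits that define PBAF and the non-canonical complex, BRD7 and PHF10 were higher, PBRM1 was marginally lower, and ARID2 and BRD9 did not pass. BRD7, a bromodomain protein of PBAF (hg19 chromosome 16, 50352929 to 50402845, minus strand), had the highest fold change of all members. It stood at 46.4 and 47.3 CPM in LNCaP and 83.8 and 88.2 in C4-2 (0.88 ± 0.047, adjusted p = 7.77e-07), a 1.84-fold difference without overlap. Its partners in PBAF did not share that size of change. PBRM1 (BAF180), with a row of bromodomains, had 177 and 166 CPM against 156 and 159 (-0.12 ± 0.048, adjusted p = 0.0450). That call was lost without LNCaP replicate 1 and without either C4-2 replicate (adjusted p = 0.159, 0.276 and 0.187), without a filter on low counts (0.145), with all transcripts summed (0.0660) and with tags of both strands (0.125). ARID2 (BAF200) had 79.7 and 70.5 CPM against 72.8 and 73.6, with the C4-2 libraries inside the range of LNCaP.

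PHF10 (BAF45A) had 23.6 and 22.4 CPM in LNCaP and 29.6 and 28.4 in C4-2 (0.33 ± 0.058, adjusted p = 0.000805). Its span overlaps C6orf120 on the opposite strand by 2401 bases, and 33.5%, 33.6%, 23.4% and 23.8% of its tags lay on that strand in LNCaP replicates 1 and 2 and C4-2 replicates 1 and 2. With the tags of both strands the log2 fold change of PHF10 was 0.17. BRD9, a bromodomain subunit and a drug target in some sarcomas, had 30.5 and 28.1 CPM in LNCaP and 27.5 and 28.1 in C4-2 and did not pass (-0.077 ± 0.060, adjusted p = 0.267). It passed as lower after removal of the length and GC trend (-0.23) and with a filter of at least 1 CPM in 2 libraries (-0.16).

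Of the 11 pairs, the ISWI ATPases had the ratio that differed most between the lines. SMARCA1 (SNF2L), known from neurons and other differentiated cells (hg19 chromosome X, 128580478 to 128657460, minus strand), had 95 and 107 tags in LNCaP and 45 and 39 in the deeper libraries of C4-2. That is 1.58 and 1.51 CPM against 0.28 and 0.33, a log2 fold change of -2.35 ± 0.22 (adjusted p = 1.78e-05) or 5.08-fold lower. Counting intervals (95%, exact Poisson) were 76.9 to 116 and 87.7 to 129 tags in LNCaP and 32.8 to 60.2 and 27.7 to 53.3 in C4-2. The value ranged from -2.45 to -2.21 without each library in turn, and was -1.34 with library totals and -0.59 on the log2(RPKM + 0.1) scale, which understates changes of low genes.

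SMARCA5 (SNF2H), the main ISWI enzyme of dividing cells (hg19 chromosome 4, 144434616 to 144478642, plus strand), had 108 and 100 CPM in LNCaP and 129 and 136 in C4-2 (0.35 ± 0.049, adjusted p = 0.000260). It held at least 97.2% of the ISWI ATPase transcripts per length in each library. The SMARCA1 to SMARCA5 ratio was 0.028 and 0.029 in LNCaP and 0.0042 and 0.0048 in C4-2, 6.42-fold lower. Next to SMARCA1 lies OCRL, 16.8 kb away on the opposite strand, a phosphatase gene that was higher in C4-2 (32.5 and 33.0 against 64.5 and 64.5 CPM, 0.98 ± 0.049, adjusted p = 5.53e-07). On the other side the nearest tested gene was TENM1, 4480 kb away, at 36.7 and 37.9 against 1.43 and 1.69 CPM.

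Of the large ISWI partners, BAZ1A was higher, BAZ1B lower and BPTF did not pass. BAZ1A (ACF1), which pairs with SMARCA5 in nucleosome spacing, had 103 and 95.9 CPM in LNCaP and 139 and 146 in C4-2 (0.52 ± 0.051, adjusted p = 2.65e-05). BAZ1B (WSTF), deleted in Williams syndrome, had 240 and 230 CPM against 207 in both libraries (-0.18 ± 0.043, adjusted p = 0.00473), and leaving out either C4-2 library ended the call (adjusted p = 0.0754 and 0.0649). With the length and GC trend removed BAZ1B stood at -0.39. BPTF, the largest subunit of NURF, had 84.2 and 76.0 CPM against 78.6 and 79.9, the C4-2 libraries lying within the range of LNCaP.

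**Figure D4:**
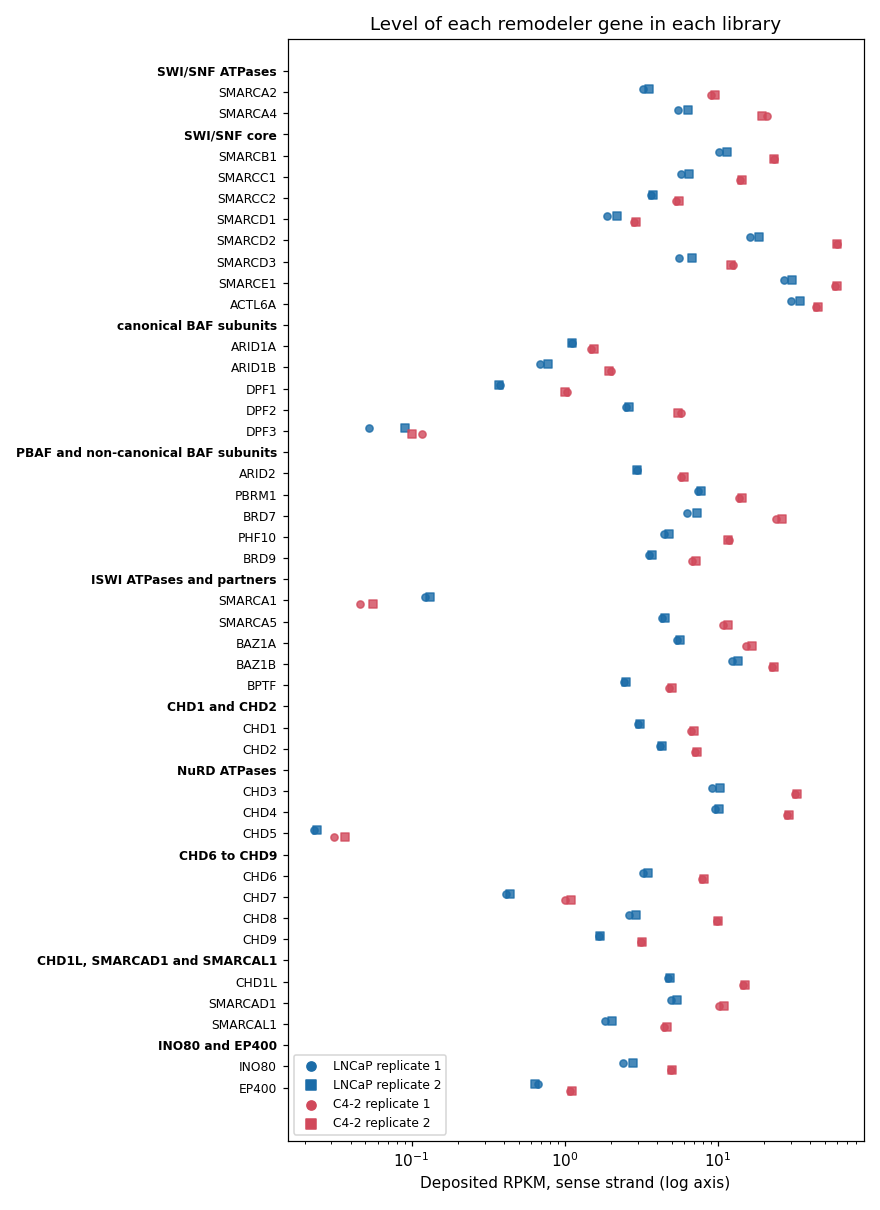
Deposited RPKM of each member in each library on a log axis, grouped by role, with circles and squares for replicates 1 and 2. ACTL6B, at 0 in every library, is left out. RPKM is scaled to the library total, so most members lie higher in C4-2 on this scale, and levels between genes are to be read within a line.

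CHD1 and CHD2, which bind transcribed chromatin, differed little. CHD1 had 61.9 and 56.0 CPM in LNCaP and 65.1 and 65.7 in C4-2 (0.15 ± 0.056, adjusted p = 0.0371). Leaving out LNCaP replicate 2 ended that call (adjusted p = 0.222), as did leaving out C4-2 replicate 1 (0.108) or replicate 2 (0.134) and a filter of at least 1 CPM in 2 libraries (0.068 on the log2 scale, adjusted p = 0.279). Summing all transcripts also ended it (adjusted p = 0.0515). CHD1 is deleted in a part of prostate cancers, and its transcript was present in all 4 libraries. CHD2 had 124 and 113 CPM against 99.1 and 99.8 (-0.25 ± 0.050, adjusted p = 0.00208). The CHD2 to CHD1 ratio in RPKM was 1.38 and 1.39 in LNCaP and 1.05 in both libraries of C4-2, 1.32-fold lower with replicate log2 SDs of 0.005 and 0.002.

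CHD2 was also the member whose transcript entries differed most. Its short RefSeq entry covers 2234 exon bases and the full entry 9364. The short entry had 7.44 RPKM in both LNCaP libraries where the full entry had 4.18 and 4.31. In C4-2 it had 9.92 and 10.2 against 7.06 and 7.33. Tags per length were thus 1.78 and 1.73 times as dense over the short entry in LNCaP and 1.41 and 1.40 times in C4-2, without overlap (exact permutation p = 0.333, the smallest possible). The entries share tags, so this does not measure 2 separate RNAs. For the other 19 members with several entries, the ratio of the shortest to the longest entry differed by less than 0.1 on the log2 scale between the lines.

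Among the NuRD ATPases, CHD3 and CHD4 were the most abundant CHD transcripts and both were higher in C4-2. CHD3 (Mi-2 alpha; hg19 chromosome 17, 7788123 to 7816075, plus strand) had 214 and 211 CPM in LNCaP and 353 and 351 in C4-2 (0.73 ± 0.040, adjusted p = 8.63e-07). CHD4 (Mi-2 beta; hg19 chromosome 12, 6679248 to 6716551, minus strand) had 197 and 186 CPM against 275 and 277 (0.52 ± 0.045, adjusted p = 1.20e-05). With the length and GC trend removed they stood at 0.42 and 0.25. Their ratio was near 1, at 0.96 and 1.0 in LNCaP and 1.14 and 1.12 in C4-2. CHD5, a neuronal paralog and tumour suppressor, had 43, 46, 73 and 62 tags in LNCaP replicates 1 and 2 and C4-2 replicates 1 and 2, at most 0.122% of NuRD ATPase transcripts per length. It did not pass (-0.48 ± 0.24, adjusted p = 0.0962), but passed as lower with the length and GC trend removed (-0.79, adjusted p = 0.0182) and under upper quartile scaling (-0.65, adjusted p = 0.0356). Between 37% and 41.9% of its tags lay on the opposite strand.

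The CHD6 to CHD9 group had 3 higher members and 1 that did not pass. CHD8, which binds beta-catenin and represses its targets (hg19 chromosome 14, 21853353 to 21899867, minus strand), had 68.2 and 66.9 CPM in LNCaP and 123 and 120 in C4-2 (0.85 ± 0.040, adjusted p = 3.96e-07). CHD6 had 107 and 102 CPM against 123 in both libraries (0.23 ± 0.042, adjusted p = 0.00108). CHD7, the gene of CHARGE syndrome, had 15.2 and 14.3 CPM against 17.4 and 18.4 (0.28 ± 0.068, adjusted p = 0.00531). The calls of CHD6 and CHD7 ended under upper quartile scaling (0.067 and 0.11). CHD9 had 61.0 and 54.7 CPM against 54.4 and 53.6 and did not pass (-0.099 ± 0.061), though it passed without LNCaP replicate 2 (-0.17, adjusted p = 0.00923) and with a filter of at least 1 CPM in 2 libraries (-0.18, adjusted p = 0.0212). CHD8 made up 32.8% and 33.9% of the group's transcripts per length in LNCaP and 45.2% and 44.6% in C4-2, taking the place of CHD6 (40.9% and 41.0%, against 35.8% and 36.3%) as the most abundant.

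Of the remodelers that act in DNA repair, CHD1L (ALC1), an ATPase activated by poly(ADP-ribose), was higher, with 44.9 and 41.3 CPM in LNCaP and 66.2 and 66.0 in C4-2 (0.62 ± 0.055, adjusted p = 1.50e-05). SMARCAL1, which anneals DNA at stalled replication forks, had 19.0 and 18.7 CPM against 21.9 and 22.2 (0.22 ± 0.055, adjusted p = 0.00546). The SMARCAL1 call ended under upper quartile scaling (0.059) and without the length and GC trend (0.034). SMARCAD1, which acts in end resection, had 79.9 and 77.3 CPM against 78.1 and 82.4, with overlapping libraries. It passed as higher with the length and GC trend removed (0.14, adjusted p = 0.00312) and as lower under upper quartile scaling (-0.14, adjusted p = 0.0263).

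EP400, the ATPase of the TIP60 complex, had 26.2 and 21.9 CPM in LNCaP and 20.1 and 20 in C4-2 (-0.26 ± 0.083, adjusted p = 0.0193), a call lost without LNCaP replicate 1 (adjusted p = 0.0829). With the length and GC trend removed EP400 stood at -0.47. INO80, which exchanges and slides nucleosomes with the variant H2A.Z, had 47.4 and 48.9 CPM against 46.6 and 45.5 and did not pass (-0.063 ± 0.050, adjusted p = 0.272). After removal of the length and GC trend INO80 passed as lower (-0.32), as it did with a filter of at least 1 CPM in 2 libraries (-0.14, adjusted p = 0.0253).

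Tags on the opposite strand were few for most members, under 2% in every library for 32 of the 39 tested. Several members differed between the lines in this respect. PBRM1 had 0.97% and 0.99% in LNCaP against 0.28% and 0.31% in C4-2. For ACTL6A the share was higher in C4-2, at 0.51% and 0.52% against 0.75% and 0.68%, but the 95% Wilson intervals of the lines overlapped. They were 0.39% to 0.66% and 0.41% to 0.66% in LNCaP, and 0.64% to 0.88% and 0.56% to 0.83% in C4-2. Opposite tags of ACTL6A stood at 0.932 and 0.961 CPM against 0.952 and 0.865, while its sense tags were lower in C4-2. SMARCD3 differed as well. It had 137 and 130 opposite tags in LNCaP (7.04%, 95% Wilson interval 5.98% to 8.26%, and 5.32%, 4.5% to 6.28%) and 44 and 52 in the deeper C4-2 libraries (0.84%, 0.63% to 1.12%, and 1.42%, 1.09% to 1.86%). No other named entry overlaps SMARCD3 in these data. SMARCC2 had between 5.78% and 6.32% in all 4 libraries, also with no named entry there. These intervals cover counting error only. Over all entries the opposite strand held 1.803% and 1.713% of tags in LNCaP and 1.195% and 1.183% in C4-2, so the deposited counts separate the strands. On their own strand CHD2, CHD3, CHD4, CHD8 and EP400 hold small RNA genes, such as SNORD8 and SNORD9 in CHD8, whose tags may be included.

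**Figure D5:**
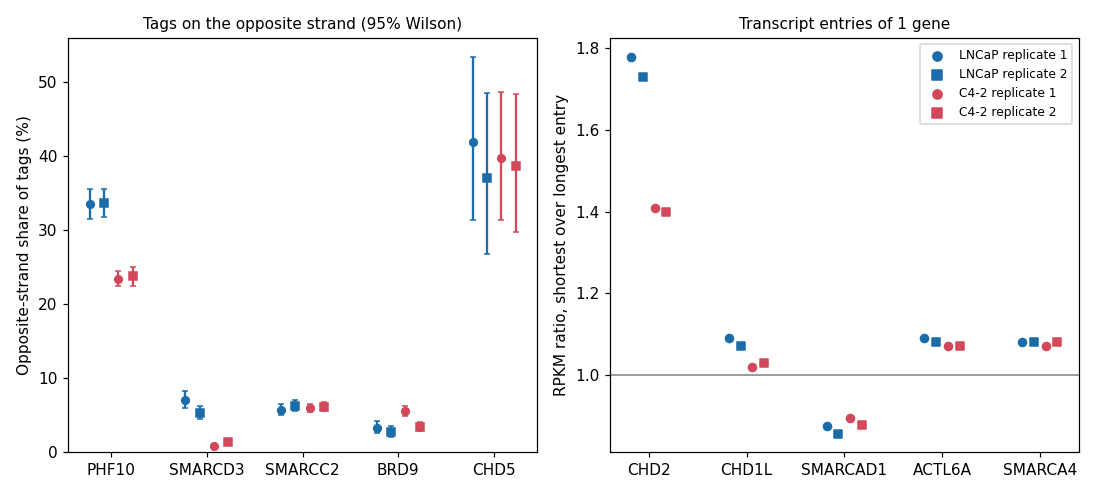
Left, share of tags on the opposite strand for 5 members in each library, with 95% Wilson intervals. Right, RPKM of the shortest entry over that of the longest entry for 5 members. Opposite-strand shares of PHF10 and SMARCD3 are higher in both LNCaP libraries, as is the CHD2 entry ratio.

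The other subunits of these complexes, from lists outside the member rule, were described in the same fit. Of 68 genes tested 34 were higher and 25 lower, with a median of 0.12. These shares, too, stand beside 80.0% of all tested genes. Of 8 further SWI/SNF subunits 2 were higher and 4 lower (median -0.26). The actin gene ACTB and BCL7A were higher at 0.60 ± 0.027 and 0.40 ± 0.055, and SS18L1, the neuronal paralog of SS18, and BICRA, a subunit of the BRD9 complex, were lower at -0.52 ± 0.051 and -0.62 ± 0.21. Among 8 tested ISWI partners 2 were higher and 5 lower (median -0.18). The histone chaperone gene RBBP7 stood at 0.54 and POLE3 at 0.12, with BAZ2A at -0.48 and BAZ2B at -0.41.

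Of 9 tested genes listed as NuRD subunits other than the ATPases 5 were higher and 2 lower (median 0.17). That list leaves out RBBP4 and RBBP7, which were counted with the ISWI partners. The deacetylase gene HDAC2 had 97.5 ± 5.5 CPM in LNCaP and 210 ± 1.7 in C4-2 (SD, n = 2; log2 fold change 1.10 ± 0.051, adjusted p = 3.68e-07), and MTA2 had 140 ± 6.3 against 265 ± 2.8 (0.91 ± 0.047). GATAD2B and CDK2AP1 were lower at -0.63 and -0.14. In the INO80, SRCAP and TIP60 complexes 15 of 30 were higher and 13 lower (median 0.12). INO80B and the AAA ATPase gene RUVBL2 were higher (1.08 ± 0.081 and 0.95 ± 0.074), and NFRKB, an INO80 subunit, and YEATS4, an acetyl-lysine reader, were lower (-0.98 ± 0.041 and -0.90 ± 0.045). Of 13 other helicases of the SNF2 family 10 were higher and 1 lower (median 0.35). HELLS, which acts in DNA methylation, had 18.3 ± 1.6 CPM in LNCaP and 62.5 ± 1.2 in C4-2 (1.77 ± 0.068, adjusted p = 1.54e-07). The recombination gene RAD54L stood at 1.04 ± 0.061, and BTAF1, which removes the TATA-binding protein from DNA, was lower at -0.47 ± 0.042. With library totals the 5 lists had 7, 8, 9, 28 and 13 members higher and 0 lower in each.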

How the data were processed

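The authors deposited, per the file headers, tag counts (counts per strand and RefSeq transcript entry) and RPKM values for 4 samples. Alignment used TopHat2 2.0.6 and Bowtie to hg19, per the submitters' processing notes. The counting tool is not given in the sources used here. Library totals behind RPKM were worked out from counts, RPKM and entry spans, and exon lengths from counts, RPKM and those totals. Accessions were named through RefSeq (GRCh38.p14, names only), with a symbol for 38974 of 40304. The entry with the most sense tags stood for each symbol, and unnamed entries (2.064% to 2.151% of sense tags) were left out. The test on sense counts was edgeR's (4.0.16, R 4.3.3), with TMM scaling and filterByExpr to drop low genes, with the line as the only term. Standard errors came from the fold change and F. On simulated counts of 15888 genes with 50 changed per size, the test found 32% of 1.25-fold, 94% of 1.5-fold, 98% of 2-fold and 100% of 4-fold changes, with 9 false calls. The simulation gave every gene the same spread (coefficient of variation 6.4%), balanced the directions and held no gap between the lines in library totals. In the data 80.0% of tested genes passed, so these shares need not hold for the real fit. Alternatives used DESeq2 1.42.0 and limma 3.58.1 on log2(RPKM + 0.1), other scalings, removal of a trend with exon length and GC content (GENCODE transcripts, matched by symbol for 97.4% of tested genes), filters, transcripts and strands, and each library left out. Replicate counts differed beyond sampling noise (chi-square per degree of freedom 25.1 and 12.8), so no library was taken as a copy. All members were named, with the 2 highest and 2 lowest called genes of each further list and the neighbours of members changed 2-fold. Members and lists were chosen with earlier results of these data known. CECR2 and MBD3 were not analysed here, and some marker and motif results are not reported here.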

Additional observations from a re-analysis of the deposited data

How the results depend on the processing

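Scaling decided the sign of many changes, including those of all members called lower except SMARCA1. With library totals, 11627 genes were higher and 1664 lower, and of the members 36 and 1 (median 1.11). SMARCC2 stood at 0.56, SMARCD1 at 0.49, ACTL6A at 0.47, ARID1A at 0.45, DPF3 at 0.59, ARID2 at 0.97, PBRM1 at 0.89, BRD9 at 0.93, BAZ1B at 0.83, BPTF at 0.99, CHD2 at 0.76, CHD5 at 0.52, CHD9 at 0.91, INO80 at 0.94 and EP400 at 0.75. By limma on log2(RPKM + 0.1), which shares that scaling, 11637 genes were higher and 1815 lower, and of the members 37 and 1 (median 1.09). There the same genes stood at 0.55, 0.47, 0.47, 0.41, 0.28, 0.95, 0.88, 0.91, 0.82, 0.97, 0.75, 0.12, 0.87, 0.92 and 0.67. Under upper quartile scaling 18 members were lower (median -0.065), with SMARCB1 at -0.065, SMARCD3 at -0.16, SMARCE1 at -0.12, DPF2 at -0.053, CHD1 at -0.016 and SMARCAD1 at -0.14.

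Values near 0 changed sign elsewhere. With at least 1 CPM in 2 libraries the members' median was 0.031, and SMARCD3, SMARCE1 and SMARCAD1 stood at -0.080, -0.033 and -0.052. With both strands SMARCD3, ARID2 and BPTF stood at -0.033, 0.003 and 0.027, and without a filter ARID2 and BPTF at 0.006 and 0.027. DESeq2 gave -0.003 for SMARCD3. With the trend of exon length and GC content removed, an alternative chosen after seeing the data, the members' median was 0.034, with 17 higher and 12 lower. SMARCD3, ARID2 and CHD9 then stood at -0.056, 0.028 and 0.035. Without each library in turn SMARCD3 ranged from -0.048 to 0.065, ARID2 from -0.12 to 0.061, BPTF from -0.085 to 0.066 and SMARCAD1 from -0.002 to 0.078, and 16 to 19 members were higher and 7 to 10 lower. The causes were not tested.

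With library totals the further lists of SWI/SNF, ISWI, NuRD, INO80 and SNF2 genes had 7, 8, 9, 28 and 13 higher and 0 lower. The replicate block gave 17 members higher and 8 lower, and 6259 and 6141 of all genes, with 1 ISWI partner higher in place of 2. The calls of PBRM1 and CHD1 ended there (adjusted p = 0.114 and 0.0551). Same-numbered replicates deviated with a correlation of -0.18, and the crossed replicate block, chosen after seeing the data, gave 19 and 9 members. None of the 11 paralog ratio differences changed sign under the settings tried. The 2 libraries per line limit the precision, and fold changes of CHD5 and DPF3, with at most 73 and 64 tags, are limited by depth.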
